A study of Mus musculus with 12 samples.

Results

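The 9 genes described here make, recycle or use nicotinamide adenine dinucleotide (NAD). They are Nampt, Nmrk1, Nmnat1 and Nmnat3 of salvage, Nadsyn1 and Qprt of synthesis from nicotinic acid and tryptophan, the NAD kinase gene Nadk, and the sirtuins Sirt1 and Sirt3. They were chosen by symbol, and each symbol matched 1 Ensembl gene ID of the 38924 IDs in the count files. All 9 passed the filter on low counts, which kept 16150 genes for testing, so no member was lost to it.

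RNA came from whole kidneys of mice of C57BL/6J background, in which Arntl, the gene of the clock protein BMAL1, had been deleted in kidney tubule cells, and of wild-type littermates. Knockout (KO) animals were Bmal1lox/lox/Pax8-rtTA/LC1. In this model the Pax8 promoter drives the doxycycline-dependent activator rtTA in tubule cells and LC1 carries the Cre recombinase, so BMAL1 in vessels, glomerular cells, interstitium and blood cells is not a target. Doxycycline was given at 2 mg/ml in drinking water for 2 weeks to mice 8 weeks old. The labels do not give the alleles of the wild-type (WT) littermates or their exposure to doxycycline, nor the sex of the animals. Kidneys were taken at zeitgeber time (ZT) 16, 4 h into the dark phase, and at ZT4, 4 h into the light phase, with 12 h of light and 12 h of dark a day. Each of the 4 groups, KO ZT16, WT ZT16, KO ZT4 and WT ZT4, had 3 libraries, 12 in all. Whether those 3 were different animals is not in the labels. The p-values therefore reflect variation among libraries, some of which may be technical.

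NAD accepts and donates electrons in metabolism and is consumed by enzymes that split off its nicotinamide, among them the sirtuin deacylases. Mammalian cells rebuild it mainly by salvage: NAMPT, the rate-limiting enzyme, joins nicotinamide to a ribose phosphate to give nicotinamide mononucleotide, which the NMNAT enzymes turn into NAD. In other mouse tissues Nampt is a known target of the CLOCK and BMAL1 heterodimer through E-box elements, and SIRT1, which needs NAD, acts back on the clock proteins. The kidney proximal tubule is also a site of synthesis from tryptophan, in which QPRT makes the first nicotinic acid nucleotide and NADSYN1 carries out the last step.

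The stretches just upstream of the transcription starts of 4 members are shown because 3 of them, Nampt, Nmrk1 and Nadsyn1, were lower in KO kidneys over both times, and the other, Sirt1, holds the E-box sequence to which CLOCK and BMAL1 bind. They are RefSeq sequences of the build GRCm38.p6, read 5′ to 3′ on the gene's strand and cut to the part that holds no annotated exon. Capitals mark the E-box CACGTG or the sequence AGGTCA, a part of the sites that ROR and REV-ERB nuclear receptors bind. The rest of such a site was not searched for.
Nampt, chr12:32820085-32820334, plus strand: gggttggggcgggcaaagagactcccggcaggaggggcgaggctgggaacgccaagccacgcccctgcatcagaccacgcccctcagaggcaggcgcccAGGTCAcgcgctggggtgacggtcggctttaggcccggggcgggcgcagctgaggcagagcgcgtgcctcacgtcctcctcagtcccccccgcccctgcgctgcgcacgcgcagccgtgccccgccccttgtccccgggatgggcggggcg
Nmrk1, chr19:18631824-18631949, plus strand: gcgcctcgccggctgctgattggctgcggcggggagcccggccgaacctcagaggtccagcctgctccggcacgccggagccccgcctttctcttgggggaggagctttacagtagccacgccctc
Nadsyn1, chr7:143822853-143823102, minus strand: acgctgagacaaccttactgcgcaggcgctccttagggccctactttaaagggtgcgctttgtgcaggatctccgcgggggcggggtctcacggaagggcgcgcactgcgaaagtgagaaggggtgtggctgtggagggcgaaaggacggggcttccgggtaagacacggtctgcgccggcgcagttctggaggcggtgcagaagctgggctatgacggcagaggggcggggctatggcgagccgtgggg
Sirt1, chr10:63339051-63339285, minus strand: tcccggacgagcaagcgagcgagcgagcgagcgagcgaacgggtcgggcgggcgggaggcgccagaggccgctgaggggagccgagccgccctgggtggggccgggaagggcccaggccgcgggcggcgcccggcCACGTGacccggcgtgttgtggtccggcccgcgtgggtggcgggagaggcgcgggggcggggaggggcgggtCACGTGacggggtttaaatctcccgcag
Windows of 250 bases before the start were found for all 9 members, 12 windows in all since some have more than 1 start. They were searched on both strands for the E-box CACGTG, its variant CACGTT, the partial receptor site AGGTCA and the D-box TTATGTAA. Of 32536 RefSeq windows of the same length, 6.04% held CACGTG, 3.87% CACGTT, 14.0% AGGTCA and 0.811% TTATGTAA. Among the members the E-box was found in the Sirt1 window, at 115 to 110 and at 43 to 38 bases before the start, and in a window of Nadk, at 40 to 35 bases before its second start. AGGTCA was found in the Nampt window, 151 to 146 bases before the start. The other windows held none of the 4 strings, which says only that these letters are not there. For 6 members the outermost RefSeq start lies inside the gene span of the GENCODE annotation, by 42669 bases for Sirt1, 9135 for Nmnat3, 790 for Nampt and 3 to 197 for Nadk, Nmrk1 and Qprt, so any start farther out was not searched.

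Counts assigned to genes summed to 25628887 to 38043491 per library, on 19624 to 20558 genes with a count, and member genes held between 410 and 12244 counts in a library. Arntl itself, counted over the whole gene, had 12.3, 13.4 and 15.0 CPM (counts relative to the scaled library total) in KO ZT16 libraries against 10.5, 8.63 and 11.03 in WT ZT16 libraries, and 15.9, 14.4 and 16.2 in KO ZT4 against 20.01, 15.3 and 13.8 in WT ZT4. The exons removed are not stated, so a whole-gene count does not check the labels. Of 17 core clock genes, 3 passed the test higher and 6 lower in KO than in WT kidneys at ZT16, and 5 higher and 6 lower at ZT4. Over all genes tested, 4.03% were called at ZT16 and 3.29% at ZT4. Npas2, which encodes a partner of BMAL1, was higher by 3.51 on the log2 scale at ZT16 and by 2.21 at ZT4, and the REV-ERB gene Nr1d2 differed by -1.96 and -2.00. KO ZT16 replicate 2 stood apart from its group. On the first principal component, 46.7% of the variance, it lay at 43.0 while KO ZT16 replicates 4 and 6 lay at -9.73 and -11.8 and the WT ZT16 libraries at 25.1 to 49.0. Mitochondrial transcripts took 22.3% of its counts, against 14.1% and 14.0% in the other KO ZT16 libraries, 18.7% to 22.4% in WT ZT16, 12.6% to 12.8% in KO ZT4 and 16.3% to 18.0% in WT ZT4. At ZT16 the KO libraries, replicate 2 included, did not overlap the WT libraries for 12 of the 17 core clock genes. Of all genes tested, 15.9% did not overlap. Among these clock genes were the 3 called higher and the 6 called lower at ZT16. Results that rest on KO ZT16 replicate 2 are given with and without it.

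Per kilobase of exon, Nampt and Nadk were the most abundant members, with means over the 12 libraries of 44.6 and 44.1 CPM per kilobase. Nampt ranged from 26.2 to 84.0 and Nadk from 35.6 to 48.0, so their ranges overlapped. Qprt followed at 32.01 (range 27.3 to 36.6), then Nmrk1 at 19.7 (13.5 to 26.7), Sirt3 at 12.7 (10.997 to 17.7) and Nadsyn1 at 9.57 (7.45 to 11.5). Nmnat1, Sirt1 and Nmnat3 were the lowest, at 4.98, 4.41 and 4.29, and their ranges of 4.51 to 5.50, 3.73 to 4.96 and 3.48 to 4.81 overlapped. The ranges of Qprt and Nmrk1 did not overlap. The spread over libraries was unequal: the highest library exceeded the lowest 3.21-fold for Nampt, 1.98-fold for Nmrk1, 1.61-fold for Sirt3 and 1.55-fold for Nadsyn1, and 1.22- to 1.38-fold for the other 5 members.

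**Figure D1:**
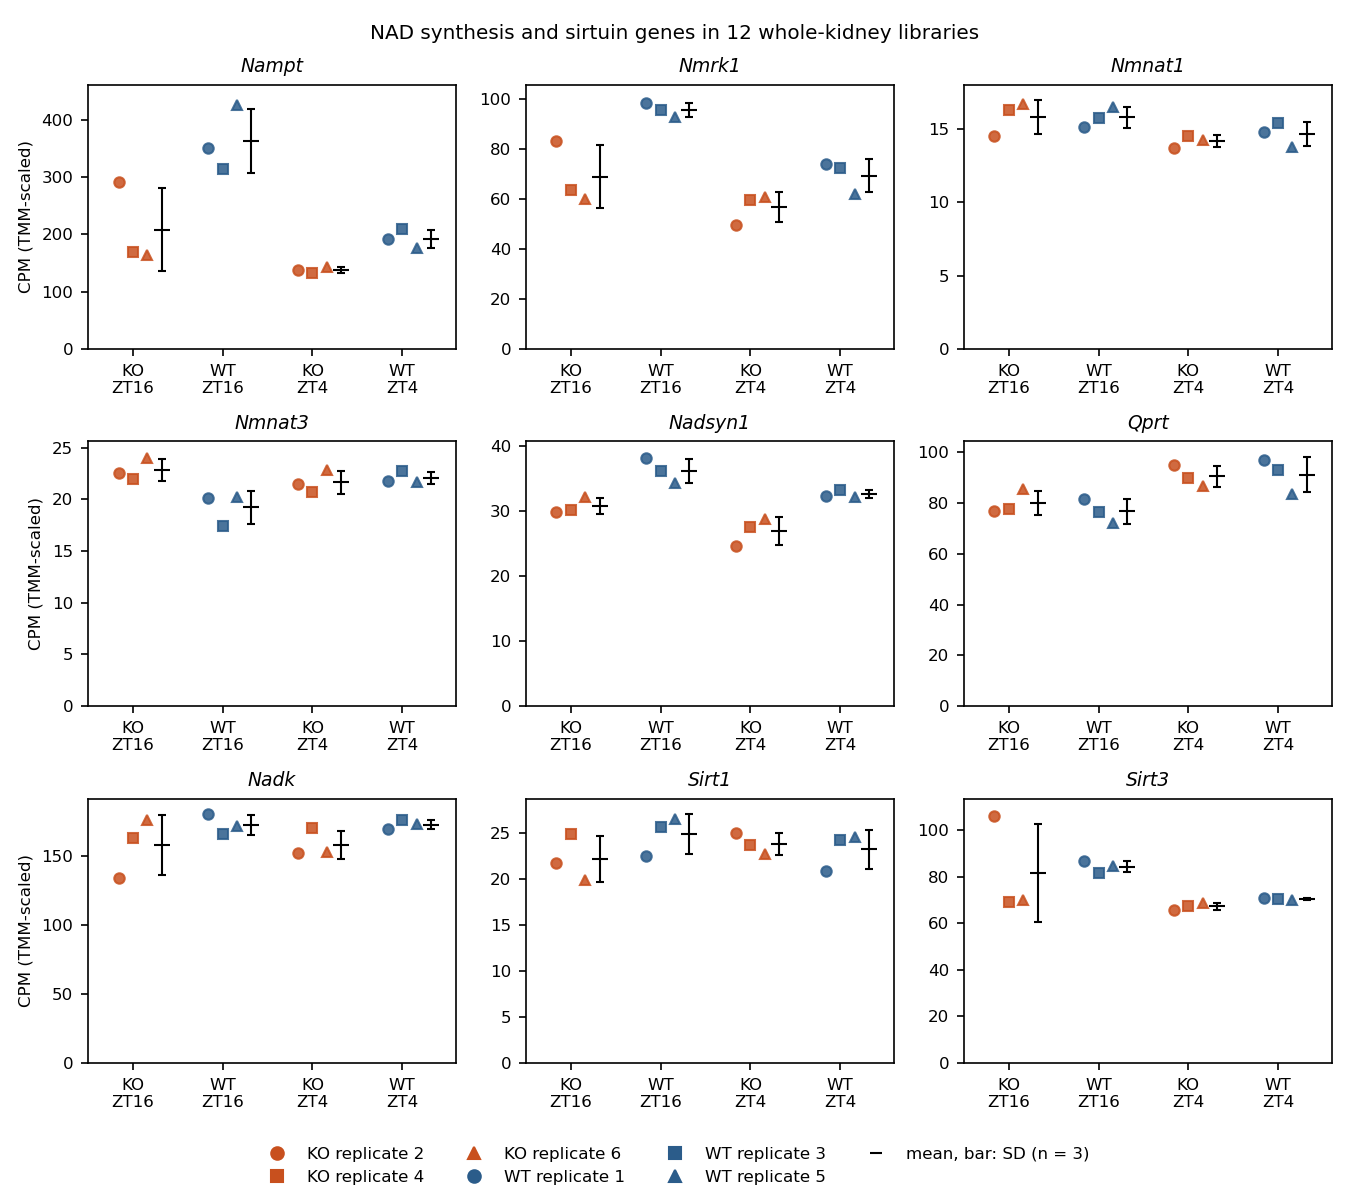
CPM, scaled by the trimmed mean of M values (TMM), of the 9 members in each library, by group. Points are libraries, and the bar beside them is the mean and SD of 3 libraries. Nampt lies at 164 to 292 in KO ZT16 and 314 to 425 in WT ZT16, and 1 KO ZT16 library, replicate 2, lies above the other KO libraries for Nampt, Nmrk1 and Sirt3.

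Nampt (ENSMUSG00000020572, chromosome 12, 32819545 to 32853349, plus strand of GRCm38) was lower in KO than in WT kidneys. It had 292, 169 and 164 CPM in KO ZT16 replicates 2, 4 and 6, against 350, 314 and 425 CPM in WT ZT16 replicates 1, 3 and 5. It had 137, 132 and 144 CPM in KO ZT4 replicates 2, 4 and 6, against 191, 209 and 176 CPM in WT ZT4 replicates 1, 3 and 5. Within each time every KO library was below every WT library, and KO ZT16 replicate 2 lay nearest to WT. At ZT16 the means were 208 ± 72.5 CPM in KO and 363 ± 56.4 CPM in WT kidneys (SD, n = 3 each), a log2 fold change of -0.80 ± 0.19 (SE), 1.74-fold lower in KO, with an adjusted p of 0.0365 by edgeR's quasi-likelihood test with Benjamini-Hochberg adjustment over all genes tested. At ZT4 the means were 138 ± 5.81 CPM in KO and 192 ± 16.4 CPM in WT kidneys, and the log2 fold change of -0.48 ± 0.19 did not pass (adjusted p 0.215). Averaged over both times the log2 fold change was -0.64 ± 0.14 (adjusted p 0.0103), 1.56-fold lower in KO. In whole-kidney RNA, fewer cells of a type and less RNA per cell cannot be told apart.

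The average over both times held for Nampt in each of 15 alternatives, with an adjusted p of at most 0.0328, but the call at ZT16 alone was less firm. Without KO ZT16 replicate 2 the ZT16 log2 fold change was -1.13 ± 0.11 (edgeR adjusted p 1.29e-05) and the ZT4 log2 fold change of -0.48 ± 0.10 passed too (adjusted p 0.00582). Without any 1 of the other 11 libraries the ZT16 call was lost, at adjusted p of 0.0508 to 0.153, and with only the 6 ZT16 libraries it was lost at 0.254. In these fits the log2 fold change stayed between -0.90 and -0.66. With only the 6 ZT4 libraries the ZT4 log2 fold change of -0.48 ± 0.07 passed (adjusted p 0.00148).

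Between the times, Nampt was higher in the dark phase in WT kidneys, where the 3 ZT16 libraries, at 314 to 425 CPM, all exceeded the 3 ZT4 libraries, at 176 to 209 CPM. The log2 fold change ZT16 over ZT4 was 0.92 ± 0.19 (edgeR adjusted p 0.0189), 1.89-fold. This call was lost without WT ZT4 replicate 1 (adjusted p 0.0617), WT ZT4 replicate 5 (0.0939) or WT ZT16 replicate 5 (0.0829), and with the replicate number as a block (0.0584). In KO kidneys the ZT16 libraries, at 164 to 292 CPM, also all exceeded the ZT4 libraries, at 132 to 144 CPM, but the log2 fold change of 0.60 ± 0.19 did not pass (adjusted p 0.0611). That value rested on KO ZT16 replicate 2, and without it the log2 fold change in KO was 0.27 ± 0.11 (adjusted p 0.130). The KO call appeared without KO ZT16 replicate 4 (0.0371) or replicate 6 (0.0273). With all 12 libraries it appeared with DESeq2 (adjusted p 0.0191) and with edgeR without the filter on low counts (0.0496). The difference between the genotypes' time changes, the interaction, was -0.32 ± 0.27 on the log2 scale and did not pass (adjusted p 0.9996). Without KO ZT16 replicate 2 it was -0.66 ± 0.14 (adjusted p 0.173).

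Nmrk1 (ENSMUSG00000037847, chromosome 19, 18631950 to 18652428, plus strand) encodes a kinase that brings nicotinamide riboside into salvage. It had 83.4, 63.6 and 60.1 CPM in KO ZT16 replicates 2, 4 and 6, against 98.4, 95.7 and 92.8 CPM in WT ZT16 libraries, and 49.8, 59.6 and 60.8 CPM in KO ZT4 libraries, against 74.1, 72.3 and 61.9 CPM in WT ZT4 libraries. The KO and WT libraries did not overlap at either time, and the KO ZT16 library nearest to WT was again replicate 2. Over both times Nmrk1 was 1.30-fold lower in KO kidneys, a log2 fold change of -0.38 ± 0.09 (edgeR adjusted p 0.0172). At each time alone it did not pass, with -0.47 ± 0.13 at ZT16 (adjusted p 0.0614) and -0.29 ± 0.13 at ZT4 (0.246). Without KO ZT16 replicate 2 it passed at both, with -0.64 ± 0.10 at ZT16 (0.000561) and -0.29 ± 0.09 at ZT4 (0.0374). DESeq2 also called it at ZT16 (adjusted p 0.0156), and edgeR with only the 6 ZT4 libraries called it at ZT4 (0.0491). The call over both times was lost without WT ZT4 replicate 1, at an adjusted p of 0.0501.

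In WT kidneys Nmrk1 was 1.38-fold higher at ZT16 than at ZT4, a log2 fold change of 0.46 ± 0.13 (edgeR adjusted p 0.0484), and the WT libraries of the 2 times did not overlap. That adjusted p lay close to the threshold, and the call was lost without any 1 library other than KO ZT16 replicates 2 and 6, at adjusted p of 0.0530 to 0.203, and with the replicate number as a block (0.116). In KO kidneys the ZT16 and ZT4 libraries overlapped and the log2 fold change was 0.28 ± 0.13 (adjusted p 0.127), or 0.12 ± 0.10 without KO ZT16 replicate 2 (0.444). The interaction was -0.18 ± 0.18 (adjusted p 0.9996), or -0.35 ± 0.13 without that library (0.418).

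The nucleotidyltransferases that complete NAD did not pass in any comparison with all 12 libraries. Nmnat1 (ENSMUSG00000028992, chromosome 4, 149467572 to 149485202, minus strand), the nuclear enzyme, had 14.5, 16.3 and 16.7 CPM in KO ZT16 against 15.1, 15.8 and 16.5 CPM in WT ZT16, and 13.7, 14.5 and 14.3 CPM in KO ZT4 against 14.8, 15.4 and 13.8 CPM in WT ZT4. The groups overlapped at both times, and the log2 fold change over both was -0.02 ± 0.06. Nmnat3 (ENSMUSG00000032456, chromosome 9, 98287435 to 98420438, plus strand), the mitochondrial enzyme, had 22.5, 22.001 and 24.0 CPM in KO ZT16 libraries, all above the 20.1, 17.4 and 20.2 CPM of WT ZT16 libraries. Its log2 fold change at ZT16 was 0.25 ± 0.08 (edgeR adjusted p 0.149), and 0.25 ± 0.09 (0.0431) without KO ZT16 replicate 2. At ZT4 its KO libraries, at 20.7 to 22.9 CPM, overlapped the WT libraries, at 21.7 to 22.7 CPM. Of the 9 members it had the only interaction with an unadjusted p under 0.05, at 0.28 ± 0.12 on the log2 scale (unadjusted p 0.0384, adjusted p 0.9996, edgeR).

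Nadsyn1 (ENSMUSG00000031090, chromosome 7, 143795584 to 143822849, minus strand), the NAD synthetase that amidates the nicotinic acid dinucleotide, had the smallest spread among the called members. It had 29.9, 30.1 and 32.2 CPM in KO ZT16 libraries against 38.1, 36.1 and 34.3 CPM in WT ZT16 libraries, and 24.6, 27.5 and 28.8 CPM in KO ZT4 libraries against 32.3, 33.3 and 32.3 CPM in WT ZT4 libraries. All 6 KO libraries lay below all 6 WT libraries, also across the times. Over both times Nadsyn1 was 1.19-fold lower in KO kidneys, a log2 fold change of -0.25 ± 0.06 (edgeR adjusted p 0.0139), and this held in each of 15 alternatives, with an adjusted p of at most 0.0397. At ZT16 alone the log2 fold change was -0.23 ± 0.08 (adjusted p 0.154) and at ZT4 alone -0.27 ± 0.08 (0.0940), and neither passed. Without KO ZT16 replicate 2 they were -0.23 ± 0.08 (0.0494) and -0.27 ± 0.07 (0.0259), both past the threshold. At ZT4 it also passed with DESeq2 (adjusted p 0.0139) and with only the 6 ZT4 libraries (0.0290). Between the times it did not pass, with 0.19 ± 0.08 in KO (0.115) and 0.15 ± 0.08 in WT kidneys (0.224).

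Qprt (ENSMUSG00000030674, chromosome 7, 127107114 to 127122226, minus strand), which makes nicotinic acid mononucleotide from the tryptophan product quinolinate, differed between genotypes by less than its spread. It had 76.9, 77.6 and 85.7 CPM in KO ZT16 against 81.7, 76.6 and 72.1 CPM in WT ZT16 libraries, and 94.9, 90.1 and 86.9 CPM in KO ZT4 against 96.9, 93.1 and 83.5 CPM in WT ZT4 libraries. The ZT16 libraries lay below the ZT4 libraries in both genotypes, with log2 fold changes ZT16 over ZT4 of -0.18 ± 0.08 in KO (edgeR adjusted p 0.146) and -0.25 ± 0.08 in WT (0.0901), neither of which passed. In WT it passed without KO ZT16 replicate 2 (0.0243) and with DESeq2 (0.0467). Nadk (ENSMUSG00000029063, chromosome 4, 155562378 to 155591001, plus strand), the cytosolic kinase that turns NAD into NADP, had 133, 163 and 176 CPM in KO ZT16 against 180, 166 and 172 CPM in WT ZT16 libraries, and 152, 170 and 153 CPM in KO ZT4 against 169, 176 and 172 CPM in WT ZT4 libraries. The groups overlapped at both times, and the log2 fold change was -0.13 ± 0.10 at ZT16 (adjusted p 0.562) and -0.13 ± 0.07 over both (0.243). Without KO ZT16 replicate 2, the lowest library, these were -0.04 ± 0.07 (0.742) and -0.08 ± 0.05 (0.203).

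Of the sirtuins, neither passed with all 12 libraries. Sirt1 (ENSMUSG00000020063, chromosome 10, 63319005 to 63381704, minus strand), the mainly nuclear deacetylase, had 21.7, 24.9 and 19.9 CPM in KO ZT16 against 22.4, 25.6 and 26.5 CPM in WT ZT16 libraries, and 25.0, 23.7 and 22.6 CPM in KO ZT4 against 20.8, 24.2 and 24.5 CPM in WT ZT4 libraries. The groups overlapped at both times, with log2 fold changes of -0.16 ± 0.11 at ZT16 and 0.04 ± 0.11 at ZT4 (edgeR adjusted p 0.492 and 0.863). Sirt3 (ENSMUSG00000025486, chromosome 7, 140863666 to 140882309, minus strand), the main mitochondrial deacetylase, had 106, 69.3 and 70.0 CPM in KO ZT16 replicates 2, 4 and 6, against 86.9, 81.8 and 84.6 CPM in WT ZT16 libraries. KO ZT16 replicate 2 was above and replicates 4 and 6 were below all WT ZT16 libraries. At ZT4 it had 65.7, 67.5 and 68.8 CPM in KO against 71.0, 70.4 and 70.2 CPM in WT libraries, which did not overlap but differed by a log2 fold change of only -0.07 ± 0.13 (adjusted p 0.801).

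The ZT16 result of Sirt3 rested on that 1 library. With it the log2 fold change KO over WT was -0.05 ± 0.13 (edgeR adjusted p 0.905), and without it -0.29 ± 0.06 (0.00486). Over both times it was -0.06 ± 0.09 with it (0.722) and -0.18 ± 0.04 without it (0.00472). Between the times, the log2 fold changes ZT16 over ZT4 were 0.28 ± 0.13 in KO (0.152) and 0.26 ± 0.13 in WT kidneys (0.210), neither of which passed. Without the library these were 0.04 ± 0.06 in KO (0.699) and 0.27 ± 0.06 in WT kidneys (0.00375), and the interaction was -0.22 ± 0.09 (0.430). Sirt3 shares 418 exonic bases (6.998% of its exonic length) with Ric8a and 342 (5.73%) with Psmd13 on the opposite strand. The strand setting of the counting is not given, so reads there cannot be told apart.

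**Figure D2:**
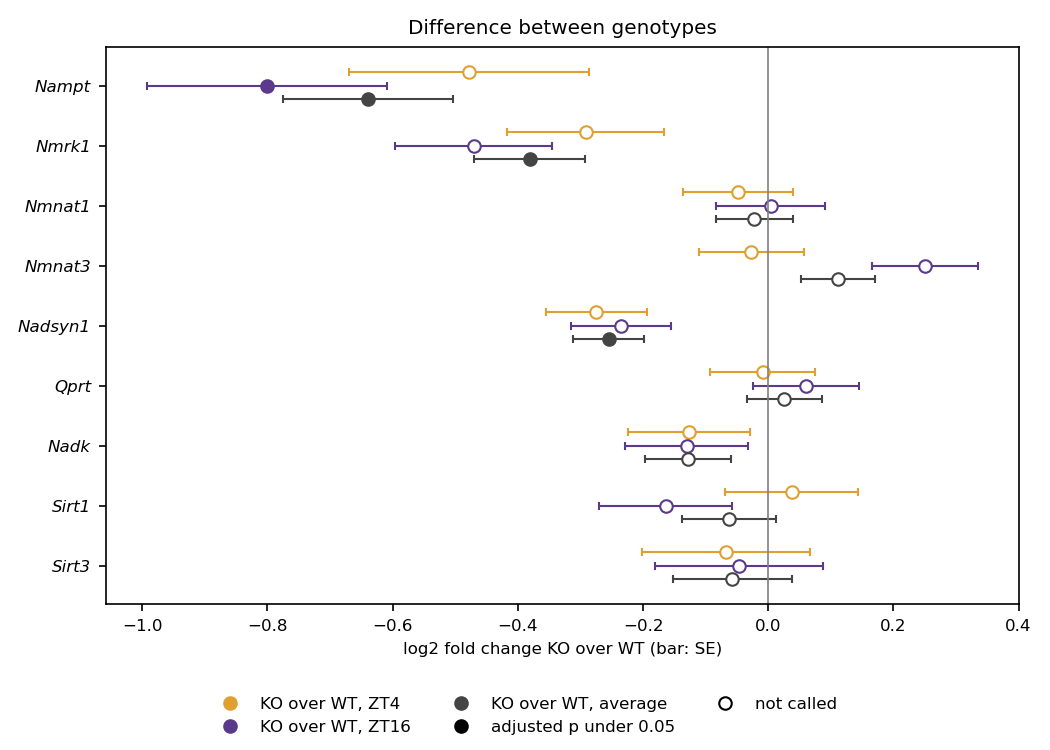
Fitted log2 fold changes KO over WT of the 9 members at ZT4, at ZT16 and averaged, with SE bars from edgeR's quasi-likelihood fit. Filled points have an adjusted p under 0.05: Nampt at ZT16 (-0.80) and Nampt, Nmrk1 and Nadsyn1 on average (-0.64, -0.38 and -0.25).

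Counted over the 9 members by edgeR's quasi-likelihood test, 1 was lower and 0 were higher in KO than in WT kidneys at ZT16, against 4.03% of all genes tested that were called in either direction and 1.96% called lower. At an unadjusted p under 0.05 there were 4 members, against 16.04% of all genes. At ZT4 0 of 9 members were called, against 3.29% of all genes, with 3 members at an unadjusted p under 0.05, against 18.3% of all genes. At ZT4 DESeq2 called 1 member and 4.31% of all genes it tested, and edgeR with only the 6 ZT4 libraries called 3 members and 18.2% of all genes. Over both times 3 of 9 were lower, Nampt, Nmrk1 and Nadsyn1, and 0 were higher, against 11.4% of all genes called and 5.31% called lower. Without KO ZT16 replicate 2 the calls were 5 of 9 at ZT16, 3 of 9 at ZT4 and 4 of 9 over both times, against 31.2%, 15.3% and 42.4% of all genes then called. Library values of KO and WT did not overlap for 4 of 9 members at ZT16 (15.9% of all genes), for 4 of 9 at ZT4 (37.7%) and for 1 of 9, Nadsyn1, over both times (3.62%). The median log2 fold change of the members was -0.13 at ZT16, -0.07 at ZT4 and -0.06 over both, beside medians of 0.02, 0.00 and 0.01 over all genes tested.

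**Figure D3:**
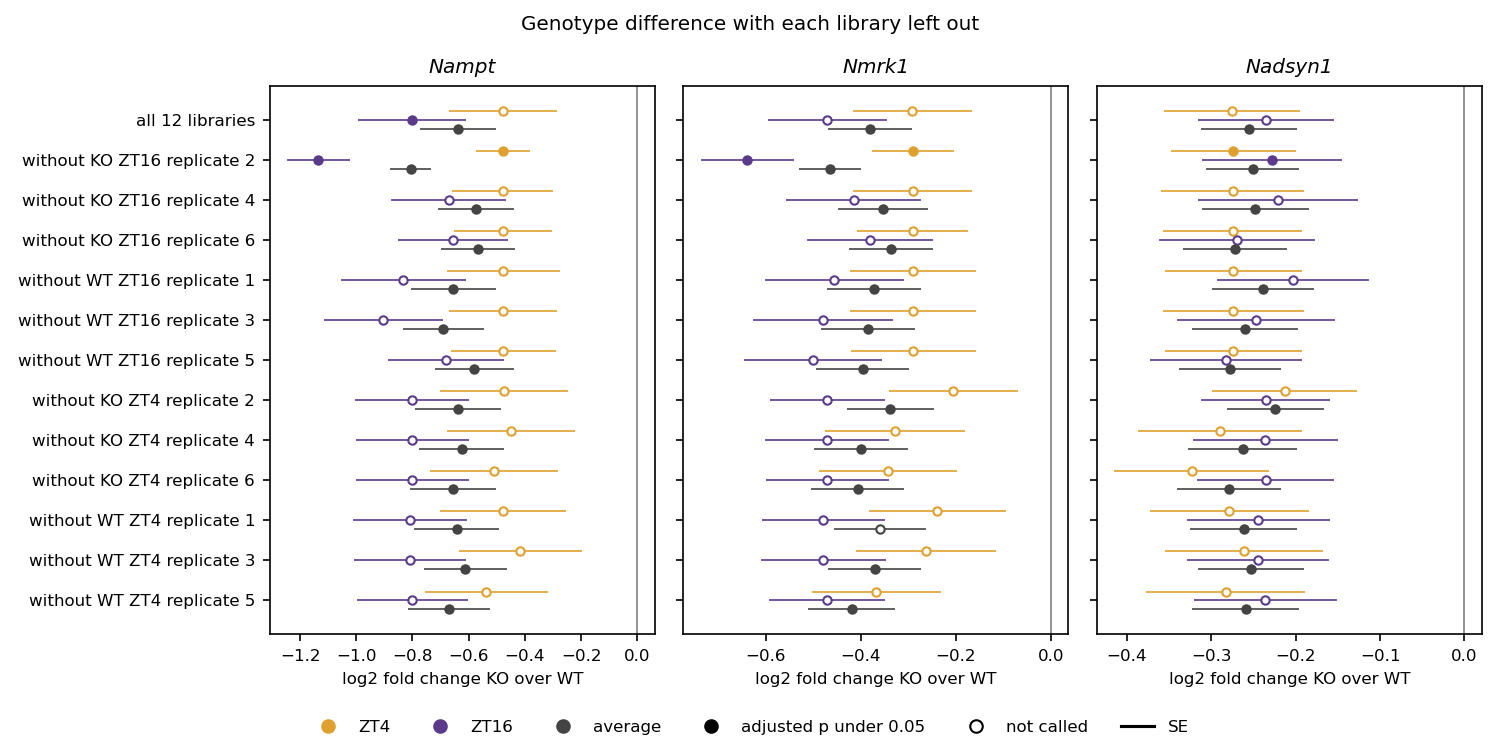
Log2 fold changes KO over WT of Nampt, Nmrk1 and Nadsyn1 at ZT4, at ZT16 and averaged, with all 12 libraries (top row) and with each library left out in turn, SE bars, filled where the adjusted p is under 0.05. Every point lies below 0, and leaving out KO ZT16 replicate 2 gives -1.13 for Nampt at ZT16 and narrows the bars of Nampt and Nmrk1.

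Between the times, 2 of 9 members were higher and 0 lower at ZT16 in WT kidneys by edgeR's quasi-likelihood test, Nampt and Nmrk1, against 6.5% of all genes called and 2.87% called higher. At an unadjusted p under 0.05 there were 4 members in WT, against 29.3% of all genes. The libraries of the 2 times did not overlap for 6 of 9 members in WT (42.6% of all genes) and for 4 of 9 in KO kidneys (43.3%). In KO kidneys 0 of 9 were called, against 10.5% of all genes, with 3 at an unadjusted p under 0.05, against 36.3% of all genes. DESeq2 called 1 member there, Nampt, and 15.2% of all genes it tested. For the interaction 0 of 9 were called, against 0.0186% of all genes, with 1 at an unadjusted p under 0.05, against 3.34% of all genes, and 0 by DESeq2. Passing in WT and not in KO kidneys does not show that the time changes differ, and the interaction tests of Nampt and Nmrk1 given above did not pass. The comparisons of KO with WT and of ZT16 with ZT4 share libraries, so their values are set side by side and not correlated.

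**Figure D4:**
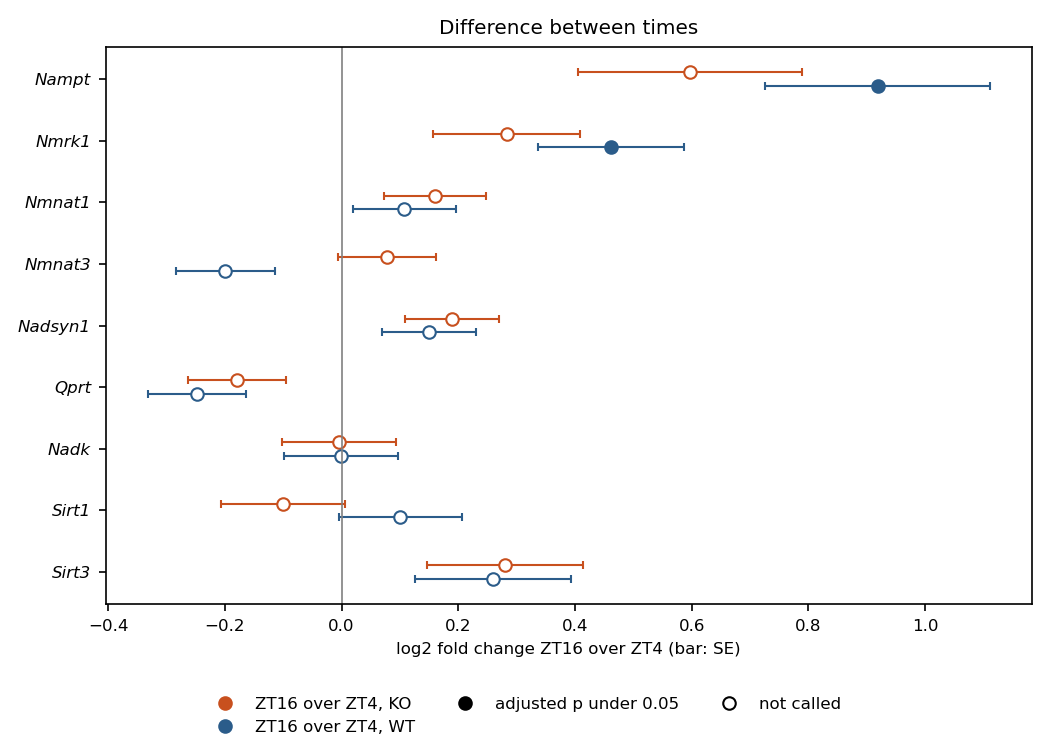
Fitted log2 fold changes ZT16 over ZT4 of the 9 members in KO and WT kidneys, with SE bars. Filled points have an adjusted p under 0.05, Nampt (0.92) and Nmrk1 (0.46), both in WT, and no member is filled in KO.

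The other genes of NAD metabolism were taken from lists of salvage, tryptophan, NADP, sirtuin, consumer and clearance genes, 30 genes beside the members. Of 7 other genes of salvage and precursor entry, 4 were tested, and 1, Nt5e, was higher in KO kidneys at both times. Of all genes tested, 4.03% were called in either direction at ZT16, 3.29% at ZT4 and 11.4% over both times. Nt5e encodes CD73, an ectoenzyme that dephosphorylates nucleotides outside the cell, AMP to adenosine and nicotinamide mononucleotide to its riboside. It had 264, 282 and 270 CPM in KO ZT16 libraries, all above the 157, 179 and 209 CPM of WT ZT16 libraries, and 172, 194 and 178 CPM in KO ZT4 libraries, all above the 149, 127 and 115 CPM of WT ZT4 libraries. Its log2 fold change KO over WT was 0.58 ± 0.12 at ZT16 (edgeR adjusted p 0.0137), 0.48 ± 0.12 at ZT4 (0.0433) and 0.53 ± 0.08 over both (0.00132). The value over both times passed in all 15 alternatives, while the ZT16 call was lost in 4 of 16 and the ZT4 call in 8 of 16. ZT16 over ZT4 it was higher by 0.58 ± 0.12 in KO (0.0145) and by 0.49 ± 0.12 in WT kidneys (0.0311), calls that were lost in 5 and 6 of 17 alternatives.

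Of 5 other NAD-consuming enzymes, 4 were tested and 1, Bst1, was higher in KO kidneys over both times, against 11.4% of all genes called. Bst1 encodes CD157, an ectoenzyme related to the NAD glycohydrolase CD38. It had 10.5, 10.3 and 10.7 CPM in KO ZT16 libraries against 8.11, 8.77 and 8.25 CPM in WT ZT16 libraries, and 12.6, 10.8 and 10.2 CPM in KO ZT4 against 9.08, 9.51 and 7.63 CPM in WT ZT4 libraries. All 6 KO libraries lay above all 6 WT libraries, and the log2 fold change was 0.34 ± 0.08 (edgeR adjusted p 0.0167), which passed in all 15 alternatives. Bst1 shares 98 exonic bases, 2.95% of its exonic length, with Fbxl5 on the opposite strand. Of 8 other genes of synthesis from tryptophan, 6 were tested and none passed between genotypes by edgeR or DESeq2. At an unadjusted p under 0.05 by edgeR there was 1 at ZT16, 0 at ZT4 and 1 over both times. The shares of all genes tested were 16.04%, 18.3% and 28.5%. Acmsd, whose product diverts a tryptophan intermediate away from NAD, was lower at ZT16 than at ZT4 in WT kidneys, with 113, 99.1 and 137 CPM at ZT16 against 205, 200 and 157 CPM at ZT4, a log2 fold change of -0.69 ± 0.15 (adjusted p 0.0215, lost in 5 of 17 alternatives). In KO kidneys Acmsd had 154, 123 and 127 CPM at ZT16 against 177, 135 and 144 CPM at ZT4, which overlapped, with a log2 fold change of -0.18 ± 0.15 (edgeR adjusted p 0.398). None of the 6 tested tryptophan genes was called for the interaction, so a difference between the genotypes' time changes of Acmsd was not shown.

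Of the 5 other sirtuins, all were tested and none passed between genotypes by edgeR. At an unadjusted p under 0.05 by edgeR there were 0, 1 and 2 at ZT16, at ZT4 and over both times. The shares of all genes tested were 16.04%, 18.3% and 28.5%. DESeq2 called 1 of them, Sirt2, lower in KO kidneys at ZT4 and over both times. Sirt2, the mainly cytosolic deacetylase, was higher at ZT16 than at ZT4 in KO kidneys, with 77.8, 73.3 and 75.7 CPM at ZT16 against 61.6, 64.7 and 63.0 CPM at ZT4, a log2 fold change of 0.26 ± 0.07 (adjusted p 0.0417). This call was lost in 12 of 17 alternatives, at adjusted p of 0.0510 to 0.130, and among them without KO ZT16 replicate 2 (0.0608). In WT kidneys the log2 fold change ZT16 over ZT4 of Sirt2 was 0.10 ± 0.07 (edgeR adjusted p 0.353). None of these 5 sirtuins was called for the interaction, so a difference between the genotypes' time changes of Sirt2 was not shown. Neither of the 2 NADP genes listed beside Nadk, Nadk2 and Nnt, and none of 3 genes of nicotinamide clearance, Nnmt, Aox1 and Aox3, passed in any of the 6 comparisons by edgeR or DESeq2, with 0 at an unadjusted p under 0.05 by edgeR. The pathway genes called over both times were the members Nampt, Nmrk1 and Nadsyn1, which were lower, and Nt5e and Bst1, which were higher.

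**Figure D5:**
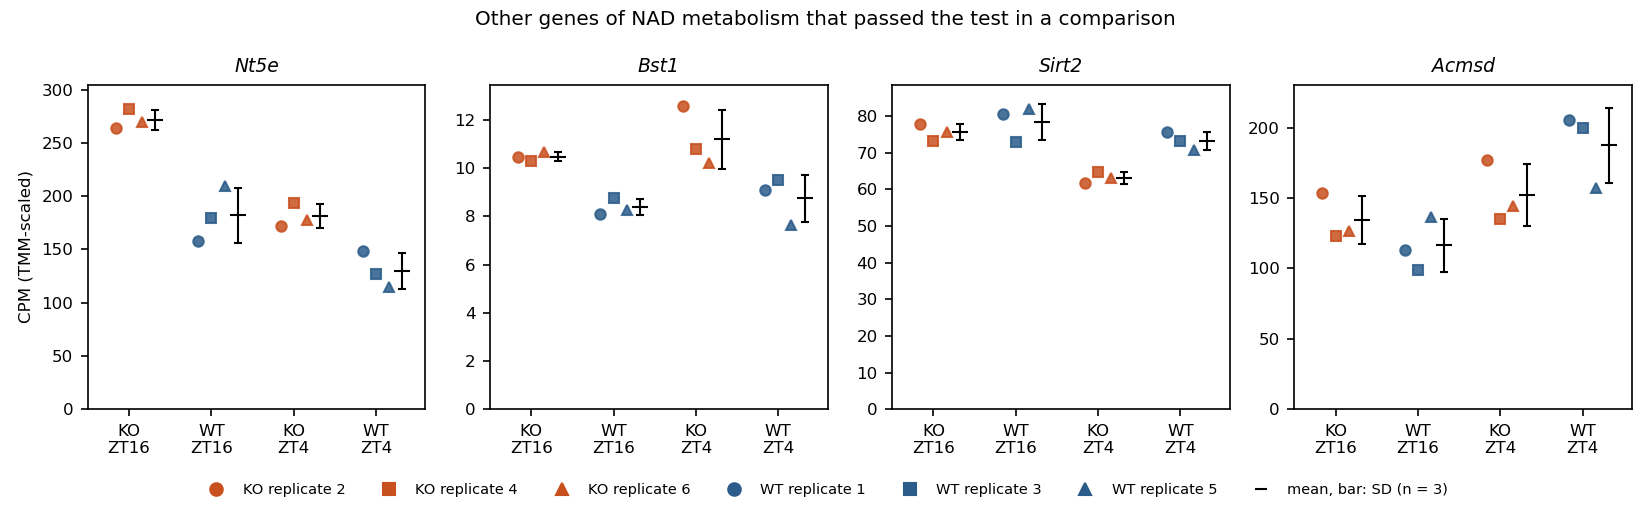
TMM-scaled CPM of Nt5e, Bst1, Sirt2 and Acmsd in each library, by group, with the mean and SD of 3 libraries. For Nt5e the KO libraries lie at 264 to 282 at ZT16 and 172 to 194 at ZT4, above the WT libraries at 157 to 209 and 115 to 149, and for Bst1 all 6 KO libraries lie above all 6 WT libraries.

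The genes most like Nampt over the 12 libraries, by Pearson correlation of log2 CPM among the 11064 tested genes that averaged 5 CPM or more, were Akr1c19 (r = 0.990), Nat8 (0.986), Osbpl9 (0.983), Gm4956 (0.982) and Hsd3b3 (0.979). Nmrk1 was most like Tspan4 (0.970), Mcrip2 (0.968) and Hsd3b3 (0.964), so Hsd3b3 stood in both lists. Nadsyn1 was most like Grina (0.966), Acot7 (0.935) and Yipf1 (0.925), and Sirt3 most like Rpl37 (0.986), Ptpmt1 (0.982) and Usmg5 (0.976). Among the members, Nampt and Nmrk1 were the most alike, at r = 0.94, followed by Nmrk1 and Nadsyn1 at 0.83 and Nampt and Sirt3 at 0.81. These points share genotype, time and library, and Nampt, Nmrk1 and Sirt3 followed the first principal component of all genes at r = 0.97, 0.91 and 0.88, so the values describe these libraries and carry no test. Nadk and Sirt1 did not, at r = -0.04 and 0.10.

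Markers of several cell types differed between some of the same groups. The summed level of 5 markers of the S3 segment of the proximal tubule, Slc7a13, Slc22a7, Cyp7b1, Acsm3 and Slco1a1, was 4062, 2394 and 2613 CPM in KO ZT16 replicates 2, 4 and 6 against 3251 to 5179 CPM in WT ZT16, and 1857 to 2383 CPM in KO ZT4 against 3076 to 4001 CPM in WT ZT4. Of the 5, all tested, 1 was called between genotypes at ZT16, 1 at ZT4 and 3 over both times. The shares of all genes tested were 4.03%, 3.29% and 11.4%, to be set beside the counts of the lists below too. The 3 thick ascending limb markers summed to 5308 to 6814 CPM in KO ZT16 against 6178 to 7549 CPM in WT ZT16, and 4341 to 4481 CPM in KO ZT4 against 5273 to 5860 CPM in WT ZT4, with 0, 1 and 1 called. The 5 markers of the proximal tubule as a whole summed to 6669, 8901 and 8781 CPM in KO ZT16 replicates 2, 4 and 6. They summed to 7635 to 8427 CPM in WT ZT16, 9134 to 9326 CPM in KO ZT4 and 8422 to 9372 CPM in WT ZT4. Of these markers 0 were called in any comparison. KO ZT16 replicate 2 had the lowest proximal tubule and podocyte (144 CPM) sums of the 12 libraries. It had the highest sums of principal cell (341 CPM), intercalated cell (255), fibroblast (158), red blood cell (494) and adipocyte (38.1) markers. The 4 macrophage markers summed to 79.4 to 86.4 CPM in KO ZT16 against 96.2 to 106 CPM in WT ZT16, and 84.0 to 92.4 CPM in KO ZT4 against 101.1 to 125 CPM in WT ZT4, so all 6 KO libraries lay below all 6 WT libraries, with 1 called at ZT16, 1 at ZT4 and 1 over both times. Over both times 2 of 4 principal cell markers and 1 of 3 markers of the distal convoluted tubule were called too, with 0 at either time alone. Principal cell markers summed to 277 to 341 CPM in KO ZT16 against 317 to 325 CPM in WT ZT16, and 262 to 274 CPM in KO ZT4 against 221 to 264 CPM in WT ZT4. Distal convoluted tubule markers summed to 540 to 772 CPM in KO ZT16 against 464 to 581 CPM in WT ZT16. At ZT4 they summed to 646.3 to 696 CPM in KO against 483 to 645.9 CPM in WT, narrowly apart. At ZT4 but not at ZT16, KO and WT sums were also apart for endothelium, lymphocyte and podocyte markers. Endothelium markers summed to 256 to 271 CPM in KO ZT4 against 290 to 316 CPM in WT ZT4. Lymphocyte markers summed to 13.3 to 14.5 against 15.7 to 19.0 CPM, and podocyte markers to 229 to 243 against 188 to 226 CPM. None of the endothelium, lymphocyte and podocyte markers was called between genotypes. Between the times in KO kidneys, 1 of 5 S3, 2 of 3 thick ascending limb and 2 of 4 principal cell markers were called. So were 1 of 3 podocyte, 2 of 3 fibroblast and 1 of 4 macrophage markers, against 10.5% of all genes. In WT kidneys 1 of 3 podocyte, 1 of 4 endothelium and 1 of 3 fibroblast markers were called, against 6.5% of all genes. No marker of the lists named so far was at 0 in all libraries. The part of these marker levels, mitochondrial share and KO ZT16 replicate 2 in the levels of Nampt, Nmrk1, Nadsyn1, Nt5e and Bst1 was not tested beyond leaving out that library. Skeletal muscle markers summed to at most 0.150 CPM and adrenal cortex markers to at most 0.872 CPM in a library, and Myh4 of muscle and Cyp11b1 of adrenal cortex were at 0 in every library.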

How the data were processed

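Poly(A) RNA of 12 whole-kidney libraries was sequenced. TruSeq stranded mRNA libraries were made from 500 ng of RNA, per the labels' protocols. According to the submitters' processing notes, the authors trimmed reads with cutadapt 1.2.1, aligned them to GRCm38 with TopHat2 2.0.9 and made the deposited counts per gene with HTSeq 0.5.4p3. They also name R 3.1.1, edgeR and limma, and no output of these was used. The annotation release, counting mode and strand setting were not given in the sources used here. Unassigned reads, which HTSeq lists apart, were removed first (3.50% to 5.96% without a feature, 0.411% to 0.534% ambiguous and 30.8% to 43.0% not unique). GENCODE M21 named 37607 of the 38924 gene IDs and gave positions and exonic lengths.

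From the counts, edgeR 4.0.16 in R 4.3.3 filtered genes with filterByExpr over the 4 groups, scaled libraries by TMM and fitted all 12 libraries by quasi-likelihood in 1 model of 4 group means (8 residual degrees of freedom, common dispersion 0.0178). The 6 comparisons were KO against WT at ZT16, at ZT4 and averaged, ZT16 against ZT4 within KO and within WT, and their interaction. Adjusted p is Benjamini-Hochberg over all 16150 genes tested, and a gene is called under 0.05. Errors are the SE of the fitted log2 fold change unless given as SD. CPM were TMM-scaled, and log2 CPM for correlations used a prior count of 2. The steps were tested on simulated counts.

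Alternatives were RLE scaling, no filter, DESeq2 1.42.0, only the 6 libraries compared, the replicate number as a block (time comparisons only), and each library left out. The least counted member, Nmnat1, had 410 to 629 counts per library, and Nampt had 4226 to 12244. Precision did not follow depth: the SE of KO against WT at ZT16 was 0.087 for Nmnat1 and 0.192 for Nampt. The members, lists and tests were chosen with earlier results of these data known. The genes named were all members, Arntl, up to 4 genes called per pathway list and comparison by smallest adjusted p, and the 5 genes most correlated with Nampt and 3 with each other member, of which the text gives those of 4 members. Markers, the uncalled Nadk2, Nnt, Nnmt, Aox1 and Aox3 and the untested Nmrk2, Tdo2, Ido1, Nmnat2 and Sarm1 fall outside this rule and were named after their values were seen, to list what was not called or tested. Pnp, which matched no gene ID, falls outside it too.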

Additional observations from a re-analysis of the deposited data

How the results depend on the processing

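The calls of Nampt and Nadsyn1 over both times kept their direction and passed in all 15 alternatives, and that of Nmrk1 in 14, while calls within 1 time depended on which libraries were fitted. The number of members called was 1 at ZT16 with all libraries, 2 with DESeq2, 0 with only the 6 libraries compared and 0 to 5 with 1 library left out. It was 0 at ZT4, 1 with DESeq2, 3 with only the 6 libraries and 0 to 3 with 1 left out. Over both times it was 3, and 2 to 4 with 1 left out. For time it was 2 in WT, 0 with the replicate block and 0 to 4 with 1 left out, and 0 in KO, 1 with no filter, 1 with DESeq2 and 0 to 1 with 1 left out. The 4 in WT were without KO ZT16 replicate 2, where 33.5% of all genes were called. For the interaction it was 0 in every alternative.

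Small differences changed sign. With RLE scaling and with DESeq2, Nadk gave 0.000929 and 0.00104 between times in WT, 0.0111 and 0.0131 in KO, and 0.0101 and 0.0121 for the interaction, and Sirt3 gave an interaction of -0.00865 with the replicate block. With 1 library left out, the log2 fold changes ran from -0.092 to 0.0945 for Nadk between times in KO, from -0.0288 to 0.0341 in WT and from -0.0922 to 0.0889 for its interaction. They ran from -0.0225 to 0.0875 for the interaction of Nadsyn1 and from -0.223 to 0.126 for that of Sirt3. At ZT16 they ran from -0.0354 to 0.0523 for Nmnat1 and from -0.289 to 0.0589 for Sirt3. At ZT4 they ran from -0.0666 to 0.00621 for Nmnat3, from -0.0679 to 0.0403 for Qprt and from -0.0329 to 0.0801 for Sirt1. Over both times they ran from -0.0439 to 0.00307 for Nmnat1 and from -0.00413 to 0.0462 for Qprt. None of these was called with all libraries. The cause was not tested.

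Over all genes, calls numbered 651 at ZT16 (DESeq2 989, only the 6 libraries 200, 1 left out 380 to 5099), 531 at ZT4 (1033, 2877, 228 to 2503), 1834 over both times (1 left out 1120 to 6935), 1050 between times in WT (2102, 3557, 220 to 5473), 1691 in KO (3637, 36, 181 to 3629) and 3 for the interaction (DESeq2 17, 1 left out 3 to 8). The upper ends at ZT16, at ZT4, over both times and in WT were without KO ZT16 replicate 2.

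The genotypes share no replicate numbers, so a replicate block was possible only for time. Same-numbered libraries of the 2 times had deviations correlated at -0.266 to 0.0542, none over 0.1. No ZT16 library was most like the ZT4 library of its own number, so the numbers were not taken as pairs. With the block, calls over all genes were 229 in WT, 189 in KO and 1 for the interaction, and Nampt and Nmrk1 in WT had adjusted p of 0.0584 and 0.116.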

Other observations

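Genes of NAD metabolism that whole-kidney RNA held at or near 0 counts were not tested. Pnp, listed with the salvage genes, was not tested for another reason: its symbol matched no gene ID of the count files. Nmrk2, the muscle-type nicotinamide riboside kinase, had 0 counts in all 12 libraries. The tryptophan dioxygenase genes Tdo2 and Ido1 had at most 2 and 7 counts in a library, Nmnat2, a mainly neuronal nucleotidyltransferase, at most 9, and Sarm1, an NAD hydrolase of axons, at most 14.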
